A study of Homo sapiens with 12 samples.

Results

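The genes described are 10 members of the Toll-like receptor system of myeloid cells: the receptors *TLR1*, *TLR2*, *TLR4*, *TLR5*, *TLR6* and *TLR8*, the co-receptors *CD14* and *LY96*, the adaptor *MYD88* and the kinase-like inhibitor *IRAK3*. Members were chosen by name, as the rows of the gene count table whose Ensembl identifiers map to these symbols, and all 10 of 10 were found among 58288 identifiers. RNA was sequenced from HL-60/S4, an established line of human promyelocytic leukemia cells, in 12 libraries of 4 groups of 3, each library from its own flask. Promyelocytes were undifferentiated cells and received either vehicle (water) or 16 ng/mL TNF-α for 2 h. Granulocytes were cells of the same line that had been given 1 µM all-trans retinoic acid (ATRA) for 4 days before the same vehicle or TNF-α treatment. Per the study's methods, granulocytes were treated in fresh media that again held 1 µM ATRA, and at a lower cell density than promyelocytes. All 4 groups were treated in calcium supplemented media, and all are 1 leukemia line rather than primary neutrophils. Each cell type was its own experiment, and for a level compared across cell types the effect of differentiation and that of the experiment cannot be told apart. Vehicle libraries are the background against which each response was measured.

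Toll-like receptors are membrane proteins that recognise conserved parts of microbes. TLR2 pairs with TLR1 or TLR6 to bind bacterial lipopeptides, TLR4 binds lipopolysaccharide with the help of LY96 (also called MD-2) and CD14, TLR5 binds flagellin at the cell surface, and TLR8 senses RNA inside endosomes. Most of these receptors signal through the adaptor MYD88 and IRAK kinases to NF-κB, the transcription factor that TNF-α also activates through its own receptor. IRAK3 (IRAK-M) holds this pathway back, and in neutrophils and monocytes the receptors start the release of cytokines and the killing of microbes.

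After 2 h of TNF-α, *TLR2*, *MYD88* and *IRAK3* rose and *TLR1* fell in both cell types, the last on a call that several other settings lost in promyelocytes. *TLR4* fell and *TLR6* rose in granulocytes, and their responses differed between the cell types. *TLR5* had no counts in any library, and *CD14* stood close to the floor of detection in all 4 groups.

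The total count ranged from 22829189 to 31895061 read pairs per library, so a gene with 3 counts, taken as the floor of detection, stood at 0.0941 to 0.131 CPM, the unit of counts scaled to library size. This floor covers counting error only. CPM values below use TMM factors over all 12 libraries, fold changes come from the fit of each comparison, SE is the standard error of a log2 fold change, and SD is over n = 3 libraries. Calls rest on the quasi-likelihood test of edgeR, with p-values adjusted by Benjamini-Hochberg over all genes tested and a threshold of 0.05. An exact two-sided permutation test of 3 libraries against 3 cannot go below p = 0.1, and edgeR instead draws on the spread of all genes to test each one. *TNF* itself rose in both cell types (log2 fold change 1.91 in promyelocytes). All 6 promyelocyte markers were lower and 8 of the 9 granulocyte markers tested were higher in granulocytes with vehicle than in promyelocytes with vehicle. In that contrast 36.6% of all genes tested were called higher and 38.5% lower. The granulocyte marker that was lower was *MMP9* (log2 difference -0.63). *CEACAM8* and *FCGR3B* had too few counts to be tested. *FCGR3B*, a defining marker of mature neutrophils, was at or under the floor in all 4 groups. In bulk RNA, fewer cells that express a gene and less RNA per cell cannot be told apart.

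Sequence upstream of the start is shown for the 3 members that rose in both cell types and for *TLR4*, the member with the smallest p for a difference between their responses. RefSeq sequences (GRCh38.p14) were matched by symbol for 8 of 10 members. Each run below holds the 250 bases before the RefSeq start, written 5′ to 3′ on the plus strand, which is the strand of all 4 genes. In the count table's annotation *MYD88*, *IRAK3* and *TLR4* begin at -183, -335 and -71 bases from the RefSeq start, so part or all of those runs lies inside the annotated genes. Capitals mark matches on either strand to GGG, any 5 bases and CC, a loose form of the κB site that NF-κB binds, or to GAGGAA, the core bound by the myeloid factor PU.1, and overlapping matches run together.
TLR2 (chr4:153684030-153684279): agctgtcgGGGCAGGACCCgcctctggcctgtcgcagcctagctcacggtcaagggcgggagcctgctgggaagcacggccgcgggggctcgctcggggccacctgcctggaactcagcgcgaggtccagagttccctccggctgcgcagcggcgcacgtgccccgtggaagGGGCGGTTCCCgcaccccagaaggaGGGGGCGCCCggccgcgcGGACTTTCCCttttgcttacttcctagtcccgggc
MYD88 (chr3:38138411-38138660): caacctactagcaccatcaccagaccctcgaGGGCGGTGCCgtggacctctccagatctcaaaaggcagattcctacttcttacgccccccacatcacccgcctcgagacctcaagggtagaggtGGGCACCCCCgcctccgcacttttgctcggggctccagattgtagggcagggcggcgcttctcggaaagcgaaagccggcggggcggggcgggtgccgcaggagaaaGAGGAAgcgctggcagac
IRAK3 (chr12:66188964-66189213): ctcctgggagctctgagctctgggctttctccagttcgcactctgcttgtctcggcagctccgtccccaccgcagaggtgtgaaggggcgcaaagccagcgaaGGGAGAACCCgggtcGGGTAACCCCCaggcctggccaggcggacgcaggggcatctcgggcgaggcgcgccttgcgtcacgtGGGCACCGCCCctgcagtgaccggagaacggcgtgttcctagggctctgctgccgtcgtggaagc
TLR4 (chr9:117704153-117704402): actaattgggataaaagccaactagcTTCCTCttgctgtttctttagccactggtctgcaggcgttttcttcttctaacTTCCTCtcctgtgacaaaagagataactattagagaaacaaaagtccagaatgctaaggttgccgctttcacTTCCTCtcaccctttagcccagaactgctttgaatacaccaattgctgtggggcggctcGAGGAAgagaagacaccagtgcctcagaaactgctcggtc
Counting each strand, the loose κB form had 7 matches upstream of *TLR2*, 7 upstream of *IRAK3* and 3 upstream of *MYD88*, many of them overlapping. There were 0 matches upstream of *TLR4*, *TLR8* and *CD14*, and also 0 upstream of *TLR6*, which rose in granulocytes. *TLR5*, which had no counts, held 6. This form was present in 53.7% of 27305 promoters of the same length, so a match by itself is common. At least 7 matches were held by 2.97%, a limit set at the count of *TLR2* and *IRAK3*. The stricter form, GGGA, any base and TTTCC, was in 0 of the 8 member sequences and in 0.546% of promoters. The PU.1 core had 4 matches upstream of *TLR4* and 1 each upstream of *MYD88*, *TLR6* and *CD14*. It was present in 23.4% of promoters, and at least 4 matches were found in 0.0513%, a limit set at the count of *TLR4* after it was seen. A match of letters is a description of the sequence and not a measurement of binding.

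*TLR2* (ENSG00000137462.6, hg38 chromosome 4, 153701500 to 153705699, plus strand) had the largest rise of the members. Its exons in the count table begin 17220 bases downstream of the RefSeq start used above, so read pairs on exons upstream of that point were not counted. In promyelocytes the normalized count was 17.2, 17.9 and 18.4 CPM with vehicle and 40.2, 42.1 and 38.8 CPM with TNF-α. In granulocytes it was 16.8, 14.9 and 15.9 CPM with vehicle and 44.45, 46.75 and 50.9 CPM with TNF-α. The groups lay far apart in both cell types and the replicates of each group lay close together. *TLR2* rose 2.30-fold in promyelocytes (log2 fold change 1.20, SE 0.0736, edgeR adjusted p = 1.84e-10). The rise in granulocytes was 2.96-fold (log2 fold change 1.56, SE 0.0701, edgeR adjusted p = 1.05e-20). The response was larger in granulocytes by 0.40 on the log2 scale (SE 0.101, edgeR interaction adjusted p = 0.00437).

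*MYD88* (ENSG00000172936.12, chromosome 3, 38138478 to 38143022, plus strand) encodes the adaptor that joins most Toll-like receptors and the interleukin-1 receptor to IRAK kinases. Promyelocytes with vehicle held 17.7, 14.05 and 15.02 CPM and those with TNF-α 24.35, 21.55 and 23.5 CPM. Granulocytes with vehicle held 50.1, 50.6 and 53.8 CPM and those with TNF-α 81.4, 74.9 and 74.7 CPM. In each cell type the TNF-α values were all higher than the vehicle values. *MYD88* rose 1.505-fold in promyelocytes (log2 fold change 0.59, SE 0.0914, edgeR adjusted p = 9.5e-05) and 1.48-fold in granulocytes (log2 fold change 0.57, SE 0.0550, edgeR adjusted p = 5.03e-11). The difference between the responses was 0.02 with an SE of 0.106 (edgeR interaction adjusted p = 0.943), and it turned negative, down to -0.15, under 4 of the 5 other settings.

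*IRAK3* (ENSG00000090376.10, chromosome 12, 66188879 to 66254622, plus strand) encodes a protein that lacks kinase activity and keeps the IRAK complex from signalling on. It had the highest counts of the members. Promyelocytes held 173.6, 177.3 and 173.1 CPM with vehicle and 223.2, 204.1 and 203.8 CPM with TNF-α. Granulocytes held 139.3, 144.6 and 141 CPM with vehicle and 221.7, 223.3 and 222.3 CPM with TNF-α, so granulocytes stood lower than promyelocytes with vehicle and level with the highest promyelocyte library with TNF-α. *IRAK3* rose 1.22-fold in promyelocytes (log2 fold change 0.29, SE 0.0578, edgeR adjusted p = 0.00126) and 1.56-fold in granulocytes (log2 fold change 0.64, SE 0.0474, edgeR adjusted p = 3.97e-14). The granulocyte response was larger by 0.38 (SE 0.0709, edgeR interaction adjusted p = 0.000188).

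*TLR4* (ENSG00000136869.13, chromosome 9, 117704332 to 117716871, plus strand) is the lipopolysaccharide receptor. In promyelocytes it stood at 42.0, 37.6 and 43.1 CPM with vehicle and at 41.8, 40.9 and 42.7 CPM with TNF-α. These groups overlapped, with a log2 fold change of 0.05 (SE 0.0676, edgeR adjusted p = 0.655) whose sign turned when trends with GC content and gene length were removed (-0.02). Granulocytes with vehicle held 95.5, 96.1 and 92.1 CPM and those with TNF-α 56.5, 57 and 55.8 CPM. All TNF-α libraries lay well below all vehicle libraries, and *TLR4* fell 1.69-fold (log2 fold change -0.76, SE 0.0519, edgeR adjusted p = 3.6e-15). The responses differed by -0.78 (SE 0.0818, edgeR interaction adjusted p = 4.89e-08).

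*TLR1* and *TLR6* encode the alternative partners of TLR2 and overlap on the minus strand of chromosome 4, with *TLR6* inside the annotated span of *TLR1* (*TLR1*, ENSG00000174125.7, 38790677 to 38856817, and *TLR6*, ENSG00000174130.12, 38823715 to 38856817). They are near-identical in places: of the 150-base windows in *TLR1* exons, 69 of 3559 (1.94%) occur unchanged in *TLR6*, and 57 exon bases belong to both genes. Their counts are therefore somewhat uncertain, and how far read pairs of one were counted on the other was not tested.

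*TLR1* in promyelocytes stood at 2.29, 3.27 and 3.35 CPM with vehicle and at 2.07, 1.501 and 1.86 CPM with TNF-α. The groups did not overlap but came close, and the call of a fall (log2 fold change -0.69, SE 0.217, edgeR adjusted p = 0.0378) was lost with DESeq2 (adjusted p = 0.0756) and in 4 of the 6 fits that left out 1 library. Those were the fits without replicate 2 or replicate 3 of the vehicle group (adjusted p = 0.14 and 0.125) and without replicate 2 or replicate 3 of the TNF-α group (adjusted p = 0.159 and 0.075). In granulocytes *TLR1* stood at 15.05, 16.6 and 17.7 CPM with vehicle and at 9.63, 10.3 and 11.1 CPM with TNF-α. This was a 1.61-fold fall (log2 fold change -0.69, SE 0.0921, edgeR adjusted p = 7.12e-08). The difference between the responses was 0.04 (SE 0.202, edgeR interaction adjusted p = 0.929) and ranged from -0.05 to 0.16 over other settings, so its sign was not stable.

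*TLR6* went up in granulocytes, where *TLR1* went down. It stood at 20.6, 21.2 and 20.4 CPM with vehicle and at 29.9, 30.9 and 26.9 CPM with TNF-α, with no overlap. It rose 1.40-fold (log2 fold change 0.48, SE 0.0708, edgeR adjusted p = 4.25e-07). In promyelocytes it stood at 7.52, 8.28 and 8.045 CPM with vehicle and at 6.89, 7.29 and 5.201 CPM with TNF-α. All 3 TNF-α values were lower, but the log2 fold change of -0.28 did not pass (SE 0.135, edgeR adjusted p = 0.191). The responses differed by 0.80 (SE 0.142, edgeR interaction adjusted p = 0.000113).

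*LY96* (ENSG00000154589.6), the small secreted protein with which TLR4 binds lipopolysaccharide, was near the limit of these libraries with 6 to 30 counts. Promyelocytes held 10, 7 and 29 counts with vehicle and 16, 7 and 12 with TNF-α, which overlapped (log2 fold change -0.35, SE 0.512, edgeR adjusted p = 0.708). The sign there rested on replicate 3 of the vehicle group, without which the log2 fold change was 0.50. Granulocytes held 17, 18 and 30 counts with vehicle and 9, 11 and 6 with TNF-α, which did not overlap. The log2 fold change of -1.07 (SE 0.411, edgeR adjusted p = 0.0289) was not called with DESeq2 (adjusted p = 0.125), nor without replicate 3 of the vehicle group (adjusted p = 0.178) or replicate 2 or replicate 3 of the TNF-α group (adjusted p = 0.06 and 0.109).

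*TLR8* (ENSG00000101916.11, chromosome X, 12906620 to 12923169, plus strand) had 1 to 25 counts. In granulocytes there were 20, 25 and 20 counts with vehicle and 10, 7 and 7 with TNF-α. These groups did not overlap, with a log2 fold change of -1.18 (SE 0.412, edgeR adjusted p = 0.0166), but the call was lost with DESeq2 (adjusted p = 0.0876). It was also lost without replicate 2 of the vehicle group (adjusted p = 0.0594), and without replicate 2 or replicate 3 of the TNF-α group (adjusted p = 0.0965 and 0.0519). Promyelocytes held 1, 18 and 7 counts with vehicle and 10, 12 and 16 with TNF-α, a spread in which no change was detectable (log2 fold change 0.55, SE 0.587, edgeR adjusted p = 0.603). The difference between the responses was -1.68 (SE 0.757, edgeR interaction adjusted p = 0.11), and it passed without replicate 2 of the promyelocyte vehicle group (-2.83, adjusted p = 0.00963).

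*CD14* (ENSG00000170458.13, chromosome 5, 140631728 to 140633701, minus strand) encodes the co-receptor that hands lipopolysaccharide to the TLR4 complex and is a classical monocyte surface marker. It had 4 to 8 counts in promyelocytes with vehicle and 2, 9 and 11 with TNF-α. Granulocytes held 5 to 6 counts with vehicle and 5, 12 and 6 with TNF-α. In CPM the promyelocyte groups overlapped, while granulocytes with TNF-α (0.226 to 0.430) lay just above granulocytes with vehicle (0.166 to 0.201), a gap of few counts. The gene did not pass the filter on low counts, so no test was made. *TLR5* (ENSG00000187554.11, chromosome 1, 223109406 to 223143282, minus strand) had 0 counts in all 12 libraries, which allows a level of up to 0.0941 to 0.131 CPM depending on the library.

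**Figure D1:**
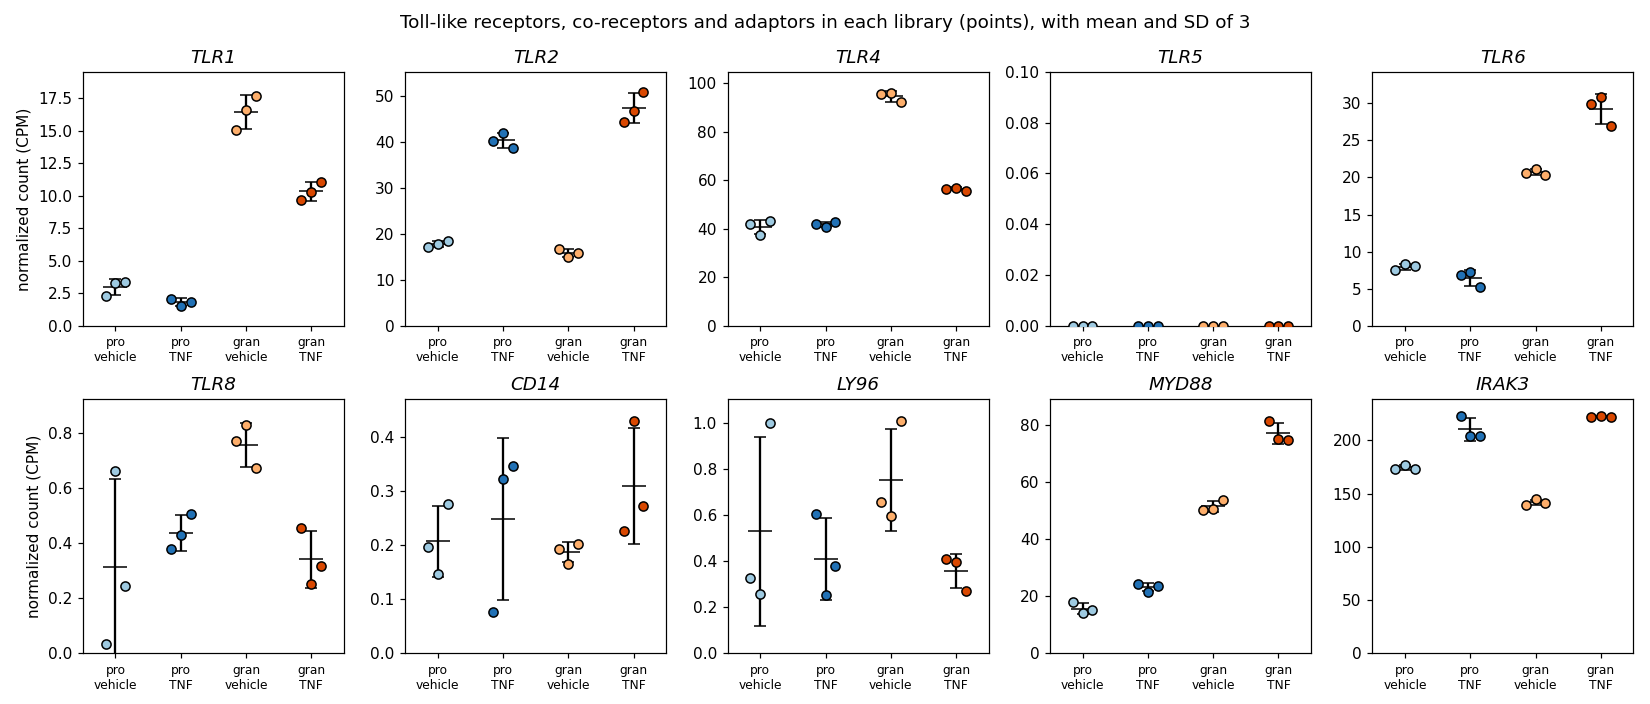
Normalized count (CPM, linear axis from 0, separate for each gene) of the 10 members in the 4 groups; points are libraries, and the horizontal line and bar are the mean and SD of 3. *TLR2* rose in both cell types to 38.8 to 50.9 CPM, *TLR4* fell in granulocytes from 92.1 to 96.1 down to 55.8 to 57 CPM, and *TLR5* was 0 throughout; the SD bar of *TLR8* in promyelocytes with vehicle runs below 0 and is cut at the axis.

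Of the 8 members tested, 4 were called in promyelocytes (3 rose and 1 fell), where 14.8% of all 16250 genes tested were called (8.15% rose and 6.65% fell). In granulocytes 8 of 8 were called, 4 in each direction, where 49.2% of 16944 genes were called (24.4% rose and 24.8% fell), so a call by itself was common there. In no member called did the groups overlap. The share of all called genes without overlap was not counted, so this cannot be read as a trait of the members. The median log2 fold change of the 8 was 0.17 in promyelocytes, against -0.01 over all genes, and -0.10 in granulocytes, against a value of 0 to 2 decimals over all genes. The responses of 4 of 8 members differed between the cell types (*TLR2*, *TLR6* and *IRAK3* with a positive difference, *TLR4* with a negative one), where 24% of 18124 genes did (14.1% with a positive and 9.88% with a negative difference). That background split into 2561 positive and 1790 negative differences, and into 2128 and 2266 with DESeq2's size factors, 1942 and 2299 with DESeq2, 1991 and 2518 with no filter on low counts, and 2137 and 2345 after trends with GC content and length were removed. The 4 members kept their direction and their call under each of these settings.

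**Figure D2:**
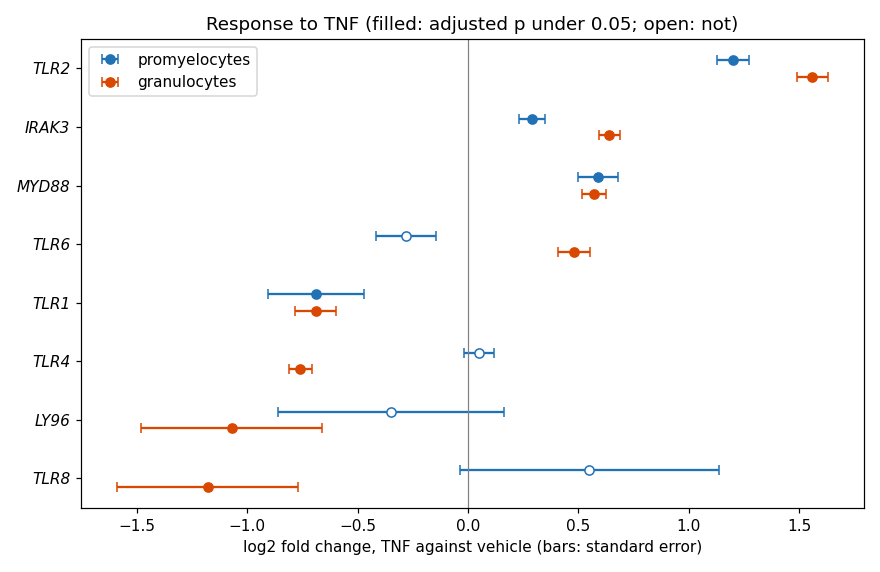
Log2 fold change of TNF-α against vehicle (x axis) for the 8 members tested, in promyelocytes (blue) and granulocytes (orange); bars are standard errors and filled points have an adjusted p under 0.05. *TLR2* lies at 1.20 and 1.56, and *TLR4* at 0.05 in promyelocytes and -0.76 in granulocytes.

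Levels were also compared between the vehicle groups, a contrast in which differentiation and experiment cannot be told apart. Of 8 members tested, 5 were higher and 2 lower in granulocytes, where 75.1% of 17118 genes were called (36.6% higher and 38.5% lower). *TLR1* was 5.51-fold higher (log2 difference 2.46, SE 0.13, edgeR adjusted p = 8.42e-17), the largest difference of the members. *MYD88* was 3.26-fold higher (log2 difference 1.71, SE 0.0733, edgeR adjusted p = 4.9e-19). *TLR6* was higher by 1.37 (SE 0.0898, edgeR adjusted p = 1.63e-14) and *TLR4* by 1.20 (SE 0.0573, edgeR adjusted p = 7.89e-18) on the same scale. *IRAK3* was lower by a log2 difference of -0.32 (SE 0.0501, edgeR adjusted p = 1.56e-06), its granulocyte libraries all under its promyelocyte libraries. *TLR2* differed by -0.18 (SE 0.0828, edgeR adjusted p = 0.0497), a call that was lost under all 4 other settings tried (adjusted p from 0.1 to 0.54) and without replicate 2 or replicate 3 of either vehicle group. *TLR8* was higher by 1.29 (SE 0.502, edgeR adjusted p = 0.0219), from 1 to 18 counts against 20 to 25, and this was lost with DESeq2 (adjusted p = 0.0857) and in 4 of 6 fits that left out 1 library. Those were the fits without replicate 1 or replicate 3 of promyelocytes and without replicate 1 or replicate 2 of granulocytes (log2 difference 0.75 without the first of these). *LY96* differed by 0.49 (SE 0.429, edgeR adjusted p = 0.304), and by 1.33 without promyelocyte replicate 3 (adjusted p = 0.0158).

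To compare members with each other, CPM was divided by the kilobases of merged exons, which gives FPKM. In promyelocytes with vehicle *IRAK3* led with 17.5 ± 0.230 FPKM (SD, n = 3), ahead of *TLR4* with 7.78 ± 0.550. *TLR2* (4.24 ± 0.146) and *MYD88* (3.91 ± 0.480) followed and overlapped, then *TLR6* (1.32 ± 0.0647), *LY96* (0.871 ± 0.677) and *TLR1* (0.655 ± 0.131), of which neighbours overlapped. *CD14* (0.110 ± 0.0346) and *TLR8* (0.0717 ± 0.0737) overlapped near the bottom, above *TLR5* at 0.

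In granulocytes with vehicle *TLR4* led with 18 ± 0.413 FPKM, then *IRAK3* with 14.2 ± 0.271 and *MYD88* with 12.9 ± 0.497, and none of these overlapped. *TLR2* (3.78 ± 0.221), *TLR1* (3.63 ± 0.291) and *TLR6* (3.44 ± 0.0677) formed a group in which neighbours overlapped, although all *TLR2* values stayed above all *TLR6* values. *LY96* was at 1.24 ± 0.366 FPKM, *TLR8* at 0.174 ± 0.0182 and *CD14* at 0.0988 ± 0.00987. With TNF-α the order in granulocytes became *IRAK3* (22.2 ± 0.0834), *MYD88* (19.3 ± 0.962), then *TLR2* (11.3 ± 0.776) and *TLR4* (10.7 ± 0.118), which overlapped. *TLR6* (4.84 ± 0.3425 FPKM) then stood above *TLR1* (2.28 ± 0.160) with no overlap, whereas the 2 overlapped with vehicle. In promyelocytes with TNF-α *TLR2* (9.61 ± 0.393) stood above *TLR4* (7.95 ± 0.174), the reverse of their order with vehicle, and *TLR6* (1.07 ± 0.184) stayed above *TLR1* (0.399 ± 0.0634).

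**Figure D3:**
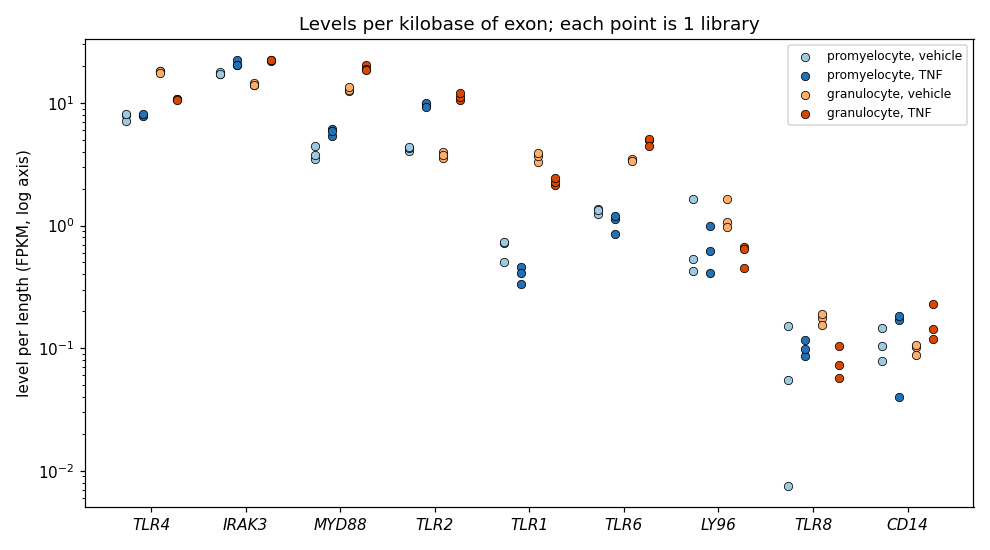
Level per length (FPKM, log axis) of 9 members, ordered by their mean in granulocytes with vehicle; each point is 1 library and the colours are the 4 groups. *TLR4*, *IRAK3* and *MYD88* lie highest in granulocytes with vehicle (12.6 to 18.3 FPKM), *LY96*, *TLR8* and *CD14* lie lowest, and *TLR5* (0 in all libraries) cannot be drawn on a log axis.

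Monocyte and macrophage markers were examined because *CD14* and *TLR4* are prominent in those cells. *CD163*, *MRC1* and *MARCO* were at or under the floor in all 4 groups. The summed level of the 6 markers reported was 13.6 to 14.3 CPM in promyelocytes with vehicle, 12.4 to 14.7 with TNF-α, 119 to 125.8 in granulocytes with vehicle and 77.9 to 88.35 with TNF-α. The 3 markers tested (*CSF1R*, *VSIG4* and *FCGR1A*) were higher in granulocytes and fell there with TNF-α, in the direction of *TLR1* and *TLR4*, and their part in those results was not tested. Over all genes tested, 36.6% were higher in granulocytes with vehicle, and 24.8% fell in granulocytes with TNF-α.

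Beyond the members, 38 other genes of the pathway were listed. In promyelocytes 30 passed the filter, of which 9 rose and 3 fell, and in granulocytes 32 passed, of which 17 rose and 9 fell (the background being the 14.8% and 49.2% given above). The list's median log2 fold change was 0.07 in promyelocytes and 0.24 in granulocytes. The responses of 13 of the 32 genes tested for it differed between the cell types, 9 with a positive and 4 with a negative difference, where 24% of all genes did. The 4 negative differences, listed after their values were seen where the rule for named genes did not cover them, were -1.34 for *PELI2*, -0.60 for *IRAK1BP1*, -0.41 for *PELI1* and -0.35 for *IRAK4*.

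Among adaptors, kinases and ligases, 5 of 15 tested rose and 1 fell in promyelocytes, and 10 rose and 3 fell in granulocytes. Over all genes tested, 8.15% rose and 6.65% fell in promyelocytes, and 24.4% rose and 24.8% fell in granulocytes. *IRAK2*, an IRAK family member that prolongs signalling after MYD88, rose from 0.265 ± 0.140 to 1.78 ± 0.0969 CPM in promyelocytes. This was a log2 fold change of 2.75 (SE 0.366, edgeR adjusted p = 1.51e-05). The granulocyte values went from 0.379 ± 0.153 to 5.44 ± 0.895 CPM (log2 fold change 3.83, SE 0.256, edgeR adjusted p = 1.82e-15). The difference between the *IRAK2* responses (1.12, SE 0.507) was not called (edgeR interaction adjusted p = 0.112). *TICAM1* (TRIF) is the adaptor of the MYD88-independent arm of TLR3 and TLR4. It rose by 1.87 in promyelocytes and 2.43 in granulocytes on the log2 scale (edgeR adjusted p = 1.71e-06 and 4.78e-22). Its difference of 0.61 (SE 0.251) was not called either (edgeR interaction adjusted p = 0.0817). *TRAF3*, a ubiquitin ligase downstream of TRIF, went from 73.75 ± 1.19 to 123.5 ± 4.42 CPM in promyelocytes and from 39.8 ± 2.39 to 201.7 ± 7.05 CPM in granulocytes, log2 fold changes of 0.77 and 2.33, and this difference of 1.60 was tested (SE 0.0779, edgeR interaction adjusted p = 2.06e-14). *PIK3AP1* (BCAP), which links the receptors to phosphoinositide 3-kinase, rose by 0.58 and 1.04 (difference 0.49, edgeR interaction adjusted p = 8.22e-06). *TRAF6*, the ligase that receives the signal from IRAK kinases, rose by 0.32 in each cell type. *TAB1*, a partner of the kinase TAK1, changed by -0.20 in promyelocytes and -0.41 in granulocytes. The promyelocyte call (edgeR adjusted p = 0.0408) held in only 2 of 6 other settings, and DESeq2 was among those that lost it (adjusted p = 0.0645). It was also lost in 5 of 6 fits that left out 1 library, holding only without replicate 3 of the TNF-α group.

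The list of brakes had 4 of 10 genes that rose and 0 that fell in promyelocytes, and 6 that rose and 2 that fell in granulocytes. The granulocyte counts include *PELI1* and *PELI3* among those that rose and *PELI2* among those that fell. Since *PELI1* can also promote signalling, these are not counts of inhibitors alone. Shares over all genes were 8.15% up and 6.65% down in promyelocytes, and 24.4% up and 24.8% down in granulocytes. *TNFAIP3* (A20), which strips ubiquitin chains from signalling complexes, went from 35.4 ± 0.375 to 431.4 ± 14.9 CPM in promyelocytes (log2 fold change 3.63, SE 0.0624, edgeR adjusted p = 3.03e-19). In granulocytes it went from 27.7 ± 2.25 to 946.1 ± 38.25 CPM (log2 fold change 5.08, SE 0.0643, edgeR adjusted p = 3.56e-38), and the difference was 1.49 (SE 0.0835, edgeR interaction adjusted p = 3.55e-13). *ZC3H12A* (Regnase-1), a ribonuclease that degrades cytokine mRNA, rose by 1.97 and 2.68 (difference 0.74, edgeR interaction adjusted p = 2.83e-05). *PELI1*, a ubiquitin ligase of the IRAK complex that can also promote signalling, rose by 1.62 in promyelocytes and 1.18 in granulocytes, the only one of these named genes with a larger rise in promyelocytes that passed the test of the difference (-0.41, edgeR interaction adjusted p = 0.00358). *TANK*, a scaffold that restrains TRAF signalling, rose by 1.24 and 1.21.

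Of the proteins that fold receptors or deliver ligands, 0 rose and 2 fell of 5 tested in promyelocytes, and 1 rose and 4 fell of 6 in granulocytes. Among all genes tested, 8.15% rose and 6.65% fell in promyelocytes, and 24.4% rose and 24.8% fell in granulocytes. *UNC93B1*, which carries the endosomal receptors such as TLR8 to their compartment, went from 127.7 ± 9.16 to 92.9 ± 9.97 CPM in promyelocytes and from 107.1 ± 4.97 to 77.9 ± 9.96 CPM in granulocytes. These were log2 fold changes of -0.43 and -0.47 (edgeR adjusted p = 0.000187 and 4.01e-08). *CD180*, a receptor homologue that restrains TLR4 in some cells, went from 18.9 ± 0.552 to 7.93 ± 1.21 CPM in granulocytes (log2 fold change -1.27, SE 0.0961, edgeR adjusted p = 6.06e-14). In promyelocytes its log2 fold change was -1.02 (edgeR adjusted p = 0.0456). That call held in 4 of 6 other settings, and DESeq2 was among those that lost it (adjusted p = 0.0937). It was also lost in 4 of 6 fits that left out 1 library. Those were without replicate 2 or replicate 3 of the vehicle group and without replicate 1 or replicate 2 of the TNF-α group. *LY86*, the partner of CD180, had 1 to 5 counts in every library. Of the other Toll-like receptors, *TLR3* alone passed the filter, in granulocytes, with a log2 fold change of -0.83 that was not called (SE 0.386, edgeR adjusted p = 0.0727).

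**Figure D4:**
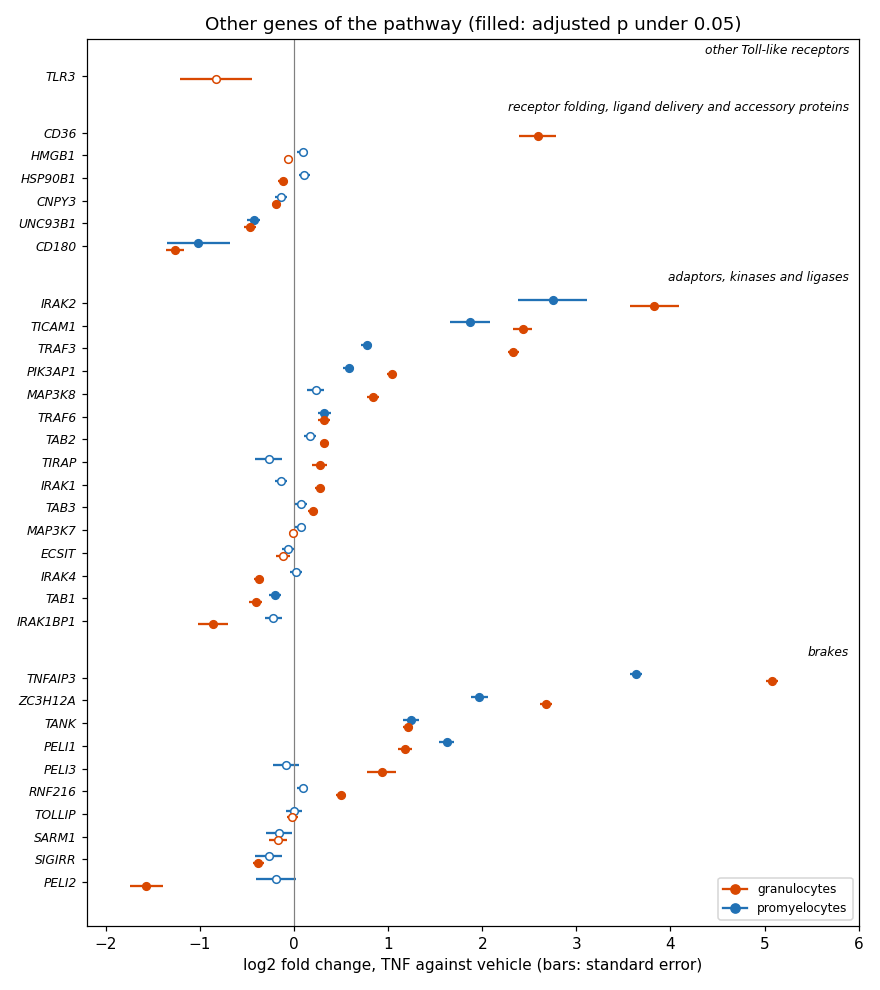
Log2 fold change of TNF-α against vehicle (x axis) for the listed pathway genes that passed the filter in granulocytes, grouped by role; blue is promyelocytes, orange granulocytes, bars are standard errors and filled points have an adjusted p under 0.05. *TNFAIP3* lies farthest to the right at 3.63 and 5.08, and *CD180* lies at -1.02 and -1.27.

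The 5 genes whose log2 CPM followed that of *TLR2* most closely over the 12 libraries, among 11802 genes whose log2 CPM averaged at least 1, were *BIRC3* (Pearson's r = 0.995), *NFKBIA* (0.994), *TNFSF10* (0.993), *TNFAIP3* (0.992) and *RELB* (0.992). The points share 4 groups and a treatment, so these values are a description without a test. *NFKBIA*, for example, went from 23.3 ± 1.22 to 345.2 ± 2.17 CPM in promyelocytes and from 13.1 ± 0.565 to 603.3 ± 30.1 CPM in granulocytes.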

How the data were processed

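RNA from 12 flasks of HL-60/S4 cells was depleted of ribosomal RNA and sequenced in 150-base pairs by the authors. Per the submitters' processing notes and the study's methods, reads were aligned with STAR 2.5.3a and counted with featureCounts 1.5.2 on GENCODE 27 (hg38), after FastQC 0.11.4, and the authors tested them with DESeq2 1.16.1. The authors deposited raw counts of read pairs per gene, on the reverse strand, with primary alignments only, so a pair that fits several places is counted at its primary one and a pair on exons of 2 genes of 1 strand is left out. For *TLR9* 86.3% of exon bases are shared in this way. Symbols came from GENCODE 44 for 57532 of 58288 identifiers, and 756 had none.

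Groups came from the labels. Counts were fitted with edgeR 4.0.16 (R 4.3.3: TMM, filterByExpr with minimum count 10 and minimum total 15, quasi-likelihood test, Benjamini-Hochberg adjustment over all genes tested, threshold 0.05). Each cell type was fitted alone, the difference between responses as the interaction over 12 libraries, and levels between the vehicle groups. Standard errors were taken from the fold change and F. Alternatives were DESeq2 1.42.0, its size factors, no filter, a replicate block, 1 fit of all 12 libraries, removal of GC content and length trends (mgcv 1.9.3), and leaving out each library. The fits were tested on simulated data with changes in genes of higher counts than *LY96* or *TLR8*. A log2 change of 0.5 was recovered in 62% of changed genes for the interaction and in 77% to 82% in the other comparisons. For a log2 change of 1 this was 94% for the interaction and 98% to 100% in the others. From 7 (level) to 17 (interaction) unchanged genes were called per comparison. The counts were drawn from the model's own estimates of spread, so these shares describe only data that follow the model. Tables and plots used Python 3.11.15, pandas 2.3.3, numpy 2.4.6 and matplotlib 3.10.9. All members are named, with the pathway genes called in both cell types or among the 3 largest changes in either, and the 5 genes most like *TLR2*. The members and lists were chosen with earlier results of these data known. Replicates are separate flasks of 1 line, so p-values measure the spread between flasks. Totals of 22829189 to 31895061 read pairs limit what can be said of genes near 3 counts. RT-qPCR and public differentiation data were not analysed here. A further marker gene is not reported here.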

Additional observations from a re-analysis of the deposited data

Results flagged for a closer look

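The members and pathway genes below are set apart because their responses to TNF-α differed between granulocytes and promyelocytes in edgeR's interaction test, with values as granulocyte response minus promyelocyte response on the log2 scale. For the members the differences were 0.80 for *TLR6*, 0.40 for *TLR2*, 0.38 for *IRAK3* and -0.78 for *TLR4*. *TLR2* and *IRAK3* rose in both cell types and more in granulocytes, *TLR4* fell in granulocytes while its promyelocyte groups overlapped, and *TLR6* rose in granulocytes while its promyelocyte value of -0.28 did not pass. Of the 32 pathway genes tested for it, 13 differed (9 positive and 4 negative). For the 5 of these that were called in both cell types the differences were 1.60 for *TRAF3*, 1.49 for *TNFAIP3*, 0.74 for *ZC3H12A*, 0.49 for *PIK3AP1* and -0.41 for *PELI1*. All 5 of these rose in both cell types. Each of the 9 differences kept its direction and its call under every alternative and in all 12 fits that left out 1 library. Each response was measured against the vehicle libraries of its own experiment, so cell type and experiment cannot be told apart in these differences. Groups of 3 are too small for a test of outlying libraries, and results that rest on 1 library were found by leaving each out in turn.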

How the results depend on the processing

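The number of members called stayed between 3 and 4 in promyelocytes, 6 and 8 in granulocytes, 4 and 5 for the difference between responses and 5 and 7 for the level, over all settings and all fits that left out 1 library. Among the members, signs turned only in values that were not called. The *TLR1* difference between responses (0.04) was -0.01 with DESeq2's size factors, -0.05 with no filter and -0.02 with DESeq2, and from -0.08 to 0.20 with 1 library left out. The *MYD88* difference (0.02) was -0.04, -0.07 and -0.04 in those settings, -0.15 after trends with GC content and length were removed, and from -0.09 to 0.08 with 1 library left out. *TLR4* in promyelocytes (0.05) was -0.02 with those trends removed. With 1 library left out, the promyelocyte values of *TLR8* ranged from -0.02 to 1.69 and of *LY96* from -0.71 to 0.50. The cause of these shifts was not tested.

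Replicate numbers did not pair the samples: the residuals of same-numbered vehicle and TNF-α libraries correlated at -0.105 to -0.0461 in promyelocytes and at -0.055 to -0.00594 in granulocytes. With the replicate block, 3 members were called in promyelocytes, 7 in granulocytes and 4 for the difference between responses, and *TLR1* in promyelocytes (adjusted p = 0.0555) and *LY96* in granulocytes (adjusted p = 0.0516) fell short. *LY96* and *TLR8* in granulocytes also fell short in the fit of all 12 libraries (adjusted p = 0.084 and 0.0757). Over all genes, 2405 were called in promyelocytes and 1598 without replicate 2 of the vehicle group. Depth limits *TLR5*, *TLR8*, *CD14* and *LY96*, which had at most 30 counts in any library.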

Other observations

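Of the pathway genes outside the rule for named genes, 2 were picked out after their values were seen. *CD36* is a scavenger receptor that assists TLR2 with TLR6. It had 0 counts in all 6 promyelocyte libraries and 24, 28 and 35 counts in granulocytes with vehicle. The mean of those granulocyte libraries (1.01 CPM) was 9.70 times a floor of 3 counts per library (0.104 CPM), and the lowest held 0.924 CPM. With TNF-α *CD36* stood at 110, 177 and 158 counts in granulocytes, a log2 fold change of 2.59 (SE 0.198, edgeR adjusted p = 7.85e-14). *TLR7*, an endosomal RNA receptor related to TLR8, had 0 counts in the 3 granulocyte libraries with vehicle and 15, 15 and 5 with TNF-α. Its mean with TNF-α (0.481 CPM) was 4.57 times the floor of 3 counts (0.105 CPM), but replicate 3 held only 0.226 CPM. In promyelocytes it had 0, 0 and 5 counts with vehicle and 6, 9 and 7 with TNF-α. It did not pass the filter on low counts, so these values have no test. *TLR8* counts in granulocytes went the other way, from 20 to 25 with vehicle to 7 to 10 with TNF-α. That call held in only 4 of 6 other settings and 3 of 6 fits that left out 1 library, so the contrast rests on few counts. No 150-base window of *TLR8* exons occurs unchanged in *TLR7*. The antisense transcript *TLR8-AS1* had at most 4 counts in any library.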
